A study of Mus musculus with 6 samples.

Results

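Complement is a set of proteins that mark, opsonise and lyse target cells, and 7 genes of this system were followed here in mature 3T3-L1 adipocytes: the components *C3*, *C4b*, *C2* and *Cfb* and the regulators *Serping1*, *Cd55* and *Cd59a*. They were chosen by gene symbol, as components and regulators of the cascade, and all 7 were among the 24421 gene symbols of the count tables. The RNA-Seq experiment compared 3 libraries from cells infected with a LacZ adenovirus (AdLacZ, the control) with 3 libraries from cells infected with an *Lmo3* adenovirus (Ad*Lmo3*), to find which genes respond to *Lmo3*, a LIM-only transcriptional cofactor, in mature adipocytes.

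3T3-L1 is an established mouse line of fibroblast-like preadipocytes that turn into fat cells under a hormone cocktail. All 6 cultures were differentiated with insulin (870 nM), a thiazolidinedione (5 µM), dexamethasone (1 µM) and isobutylmethylxanthine (500 µM) in medium with 10% serum (CS in the labels), were infected on day 7 with 100 plaque-forming units per cell and were taken 3 days later. The last 2 agents of that list were withdrawn on day 3. Both groups thus carry an adenoviral load, and the series has no uninfected culture. The labels give the strain as C57BL/6, although the 3T3-L1 line was derived from Swiss mouse embryos, and they do not say whether the libraries of a group came from separate differentiations, so that p-values measure the spread between these libraries, which may be technical. As a single line, 3T3-L1 does not hold the immune and vascular cells of fat tissue.

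Complement can be started in 3 ways. The C1 complex, once bound to targets such as antibody complexes, starts the classical route. Sugar-binding lectins start the lectin route, and both lead to cleavage of C4 and C2. The alternative route is a loop in which factor B, the product of *Cfb*, binds C3b and is cut by factor D, the product of *Cfd*, which is also known as adipsin and is among the most abundant secreted proteins of fat cells. All routes converge on C3, whose fragments C3a and C3b signal to receptors and coat targets. Fat cells are known to make C3, factor B and factor D together, and the C3a fragment without its terminal arginine has been studied as a lipid-storage hormone. The regulators hold the cascade in check: the C1 inhibitor, encoded by *Serping1*, blocks the C1 and lectin proteases, CD55 speeds the decay of the convertases on the cell's own membrane, and CD59 stops the assembly of the membrane attack complex.

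Of the 7 members, *C3* alone was significantly induced by *Lmo3* in edgeR's quasi-likelihood test, with a log2 fold change of 0.76. *Cfb* had the largest difference, with a log2 fold change of 1.53 and no overlap between the groups, but its adjusted p was 0.0651. *C4b* spread widely within the Ad*Lmo3* group. *C2* was at the edge of detection, and *Serping1* was low, at 12 to 31 counts a library. The membrane regulators *Cd55* and *Cd59a* were present in both groups, with overlapping levels and no significant difference. In the wider pathway, *Cfd* rose together with *C3*, while the listed C1q chains and the C5a receptor gene *C5ar1* had no count in any library.

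The libraries held between 28035639 and 38332335 counts assigned to genes. A count of 3, taken as the detection limit, corresponds to 0.0768 to 0.111 counts per 1000000 gene counts (CPM), and such limits cover counting error only. CPM values use library totals adjusted by edgeR's TMM factors. Of 12766 genes tested, 346 were higher (2.71%) and 201 were lower (1.57%) in Ad*Lmo3*, 547 in all (4.28%), at an adjusted p under 0.05. With library totals alone in place of TMM factors the split was 266 higher and 501 lower. *Lmo3* itself had 0 counts in all 6 libraries, so the labels could not be checked through it. By the paper's methods, the virus carried a codon-optimized form of mouse *Lmo3*, and the paper reported *Lmo3* mRNA and protein after infection. Whether reads of that altered sequence can be counted under *Lmo3* was not tested. Of 8 adipocyte marker genes, 6 were significantly higher in Ad*Lmo3* and 0 were lower, and their summed level ran from 9203 to 9792 CPM in AdLacZ and from 13706 to 16787 CPM in Ad*Lmo3*. *Fabp4*, a fatty acid binding protein, was the most abundant of them. In such bulk samples, more fat cells and more RNA per fat cell cannot be told apart.

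*C3* was the second most abundant of the complement genes compared per kb of exon, after *Cfd*. The gene lies on chromosome 17 at chr17:57203970-57228136 on the minus strand (GRCm38, GENCODE vM21), with 42 exon blocks that add up to 5143 bases, and none of its stretches of 75 bases, the read length, occurs in a transcript of another gene of the tables. Its level was 1967, 1998 and 1969 CPM in the AdLacZ libraries and 3138, 2997 and 3911 CPM in the Ad*Lmo3* libraries. The control libraries were nearly equal, all 3 Ad*Lmo3* libraries were above them, and the third Ad*Lmo3* library was the highest. The group means were 1978 ± 17.0 and 3348 ± 492 CPM (SD, n = 3), a 1.69-fold difference. *C3* was significantly induced, with a log2 fold change of 0.76 (SE 0.110, 95% interval 0.51 to 1.01, adjusted p = 0.0115, edgeR's quasi-likelihood test). *C3* reads took between 0.201% and 0.204% of all gene counts in AdLacZ and between 0.293% and 0.377% in Ad*Lmo3*. The call was lost when AdLacZ replicate 3 was left out (log2 fold change 0.76, adjusted p = 0.0711).

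*Cfd*, which supplies the protease that cuts factor B on C3b, is no member but acts on *C3* and *Cfb* products. It measured 2471, 2468 and 2345 CPM in AdLacZ and 3710, 4304 and 4799 CPM in Ad*Lmo3*. Again the groups did not overlap, and *Cfd* was induced 1.76-fold (log2 fold change 0.81, SE 0.106, adjusted p = 0.00780, edgeR's quasi-likelihood test). Without AdLacZ replicate 3 its adjusted p was 0.0601.

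The proximal promoters of *C3* and *Cfd*, the most abundant complement genes of these cells and both induced, are shown from 250 bases before to 50 bases after the annotated gene start (RefSeq, GRCm38.p6, 5′ to 3′ on the strand of the gene). *C3* spans chr17:57228087-57228386 on the minus strand and *Cfd* spans chr10:79890603-79890902 on the plus strand. Capitals mark the letters TTNNGNAA, a loose form of the site read by C/EBP factors, searched on both strands.
C3: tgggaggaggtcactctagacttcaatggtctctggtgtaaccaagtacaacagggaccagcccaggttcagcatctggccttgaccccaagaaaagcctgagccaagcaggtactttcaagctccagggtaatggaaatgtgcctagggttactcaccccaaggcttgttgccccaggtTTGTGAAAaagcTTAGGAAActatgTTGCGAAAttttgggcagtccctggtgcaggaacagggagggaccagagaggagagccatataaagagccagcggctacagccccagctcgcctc
Cfd: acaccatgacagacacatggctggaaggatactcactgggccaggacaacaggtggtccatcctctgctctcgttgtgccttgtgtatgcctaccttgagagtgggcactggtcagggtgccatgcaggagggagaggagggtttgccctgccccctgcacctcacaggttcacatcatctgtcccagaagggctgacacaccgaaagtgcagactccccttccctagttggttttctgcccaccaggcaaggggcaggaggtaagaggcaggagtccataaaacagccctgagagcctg
The *C3* promoter holds 3 such matches, which begin 70, 58 and 45 bases before the annotated start, and the *Cfd* promoter holds none. The letters occur in 40.7% of the 32851 promoters of this length in the table, and 3 or more matches occur in 3.60%. The letters GAAANNGAA, the core of the interferon response element, occur in 8.56% of promoters and in neither of those shown, again on both strands. The letters TATAAA occur in 13.6% of promoters, and in *C3* they begin 14 bases after the annotated start. The start used in these cells was not mapped. Matches to different motifs did not overlap. A promoter was available for 3 of the 7 members, and those of *Cd55* and *Cd59a* hold 0 matches to TTNNGNAA. The *Cd59a* promoter holds 1 match to GAAANNGAA, which begins 187 bases before the start. Such matches describe letters only and show no binding.

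Of 12 transcription factors with known sites in complement promoters, 3 were induced (*Cebpa*, *Pparg* and *Nr1h3*) and 0 were lower, where 2.71% of all tested genes were higher. The most abundant of the 12 was *Pparg*, the adipogenic nuclear receptor, with a log2 fold change of 0.48 (adjusted p = 0.0316, edgeR). *Cebpa*, which encodes an adipogenic C/EBP factor and was picked for naming after its values were seen, had a log2 fold change of 0.59 (adjusted p = 0.0111, edgeR). The other C/EBP genes of the list were not called. *Cebpb* had a log2 fold change of 0.21 (adjusted p = 0.335, edgeR) and *Cebpd* 0.05 (adjusted p = 0.898, edgeR). The summed level of the 12 was 2142 to 2346 CPM in AdLacZ and 2407 to 3136 CPM in Ad*Lmo3*.

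**Figure D1:**
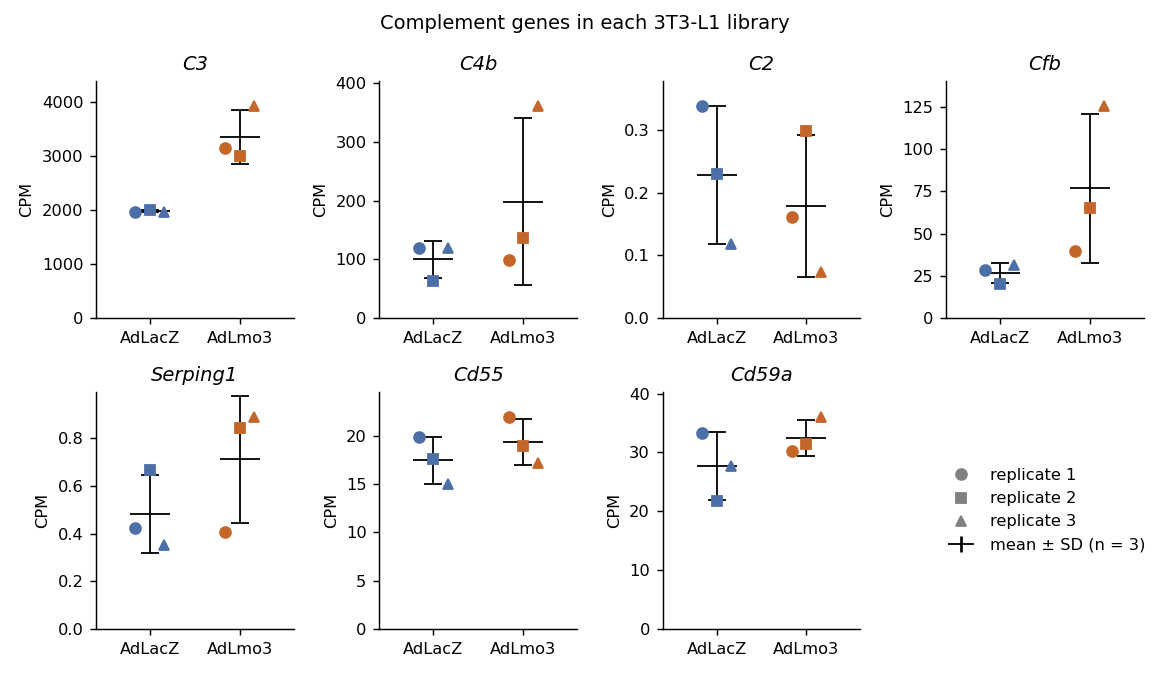
CPM (vertical axes, from 0, with a scale of their own for each gene) of the 7 members in the 3 AdLacZ and 3 Ad*Lmo3* libraries, with symbols for the replicate number and bars for the mean ± SD. *C3* and *Cfb* do not overlap between the groups, *C4b* is raised mainly in Ad*Lmo3* replicate 3, and *C2* and *Serping1* stay below 1 CPM.

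*Cfb* encodes factor B, which binds C3b and carries the catalytic site of the alternative convertase. The gene lies at chr17:34856374-34862518 on the minus strand (GRCm38), with 17 exon blocks of 2825 bases in all and no shared stretch of 75 bases. It was read at 28.5, 20.0 and 31.4 CPM in AdLacZ and at 39.6, 65.4 and 125 CPM in Ad*Lmo3*. Every Ad*Lmo3* library was above every AdLacZ library, yet the highest Ad*Lmo3* value was well above the lowest, and replicate 1 was close to the controls. The means were 26.6 ± 5.93 and 76.8 ± 44.0 CPM (SD, n = 3), a ratio of 2.89. The log2 fold change was 1.53 (SE 0.377, 95% interval 0.66 to 2.39), and the adjusted p of 0.0651 in edgeR's quasi-likelihood test missed the threshold. *Cfb* passed it in DESeq2 (adjusted p = 0.0351), in edgeR with no filter on low counts (0.0152), with the replicate number as a block (0.0484) and without Ad*Lmo3* replicate 1 (log2 fold change 1.84, adjusted p = 0.0132), and it missed it in all other alternatives. Without Ad*Lmo3* replicate 3 the log2 fold change was 0.98 (adjusted p = 0.0752).

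The large subunit of the classical convertase is made from C4, and mice hold 2 near copies of its gene, *C4b* and *C4a* (also known as Slp). *C4b* lies at chr17:34728380-34743882 on the minus strand (GRCm38), with 40 exon blocks of 5695 bases. Of its stretches of 75 bases, 22.7% also occur in *C4a*, so reads there could go to either gene or be dropped. *C4b* stood at 119, 63.4 and 119 CPM in AdLacZ and at 98.8, 136 and 360 CPM in Ad*Lmo3*. Only replicate 3 of Ad*Lmo3* stood clearly above the controls, and replicate 1 was within their range. The means of 100.2 ± 31.9 and 198 ± 141 CPM (SD, n = 3) gave a log2 fold change of 0.98 (SE 0.459, 95% interval -0.07 to 2.04, adjusted p = 0.276, edgeR), which was not significant. Without Ad*Lmo3* replicate 3 it fell to 0.23 (adjusted p = 0.698), and with *C4a* counts added to *C4b* it was 0.98 (adjusted p = 0.277). *C4a* was at 2.48 to 3.96 CPM in AdLacZ and at 3.13, 3.50 and 9.59 CPM in Ad*Lmo3*, again highest in replicate 3.

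*C2* encodes the protease subunit of the classical and lectin convertase and is the close relative of factor B. It lies directly upstream of *Cfb*, at chr17:34862604-34898265 on the minus strand (GRCm38), where 4.16% of its 3872 exon bases overlap *Zbtb12*, a gene on the other strand. Its counts were 12, 9 and 4 in AdLacZ and 6, 11 and 2 in Ad*Lmo3*, or 0.074 to 0.337 CPM. The ranges overlapped, the lowest library was below the detection limit of 3 counts, and *C2* did not pass the low-count filter. In edgeR without that filter the log2 fold change was -0.31 (SE 0.624, adjusted p = 0.845). A difference in *C2* was not detectable at this depth.

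*C4b*, *C4a*, *Cfb* and *C2* sit within 169886 bases of each other in the class III part of the major histocompatibility complex. The 5 other tested genes of this stretch lie between or within the complement genes: *Stk19*, *Dxo*, *Skiv2l*, *Nelfe* and *Zbtb12*. Their log2 fold changes were between -0.09 and 0.04 with a median of 0.01, and 0 of 5 were called by edgeR, DESeq2 or limma or had an unadjusted p under 0.05 in edgeR. *Nelfe*, whose product is a subunit of the negative elongation factor, lies directly beside *Cfb* and had a log2 fold change of -0.04 (adjusted p = 0.726, edgeR). These neighbours were picked by position after the values of the members were known.

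**Figure D2:**
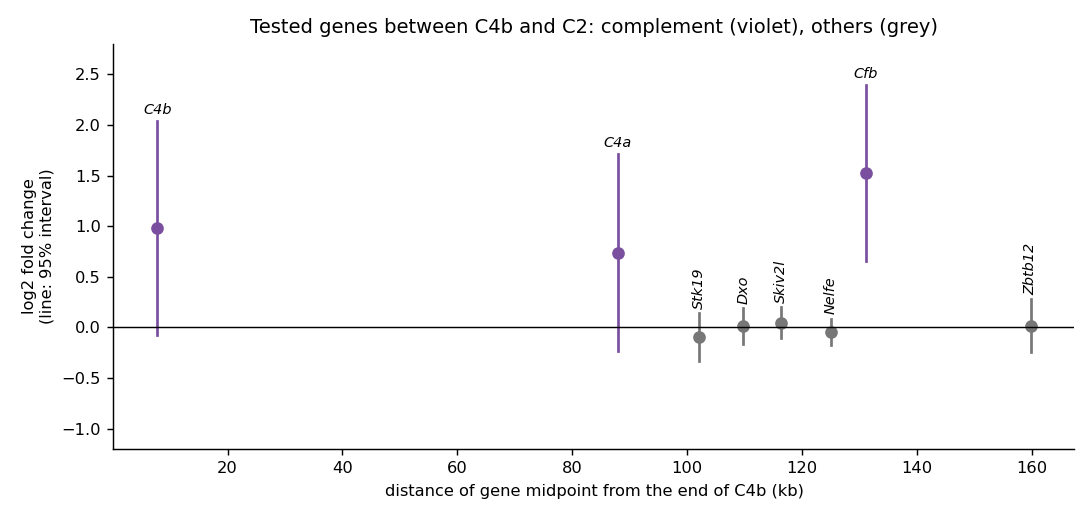
Log2 fold change (vertical axis, Ad*Lmo3* over AdLacZ, with 95% intervals as lines) of the 8 tested genes from *C4b* to *Zbtb12*, against the distance of the gene midpoint from the *C4b* end of the stretch in kb (horizontal axis). The 5 grey genes lie between -0.09 and 0.04, whereas *Cfb*, *C4b* and *C4a*, in violet, lie at 1.53, 0.98 and 0.74, with intervals that include 0 for *C4b* and *C4a*.

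The order of the libraries was then compared with interferon-stimulated genes, since *C4b*, *Cfb* and *Serping1* are known to respond to interferon and all cells were infected with adenovirus. The summed level of 10 listed interferon-stimulated genes was 1372 to 1730 CPM in AdLacZ and 691, 1552 and 3549 CPM in Ad*Lmo3* replicates 1 to 3. Within Ad*Lmo3*, *Cfb*, *C4b* and *Serping1* were likewise lowest in replicate 1 and highest in replicate 3. The same order held for *Cd59a*, *Cfd*, *C1rl* and the summed adipocyte markers (13706, 15607 and 16787 CPM). Within AdLacZ the interferon sum was 1372, 1520 and 1730 CPM in replicates 1 to 3, and these 3 genes did not keep that order. *Cfb* and *C4b* were lowest in replicate 2, and *Serping1* was lowest in replicate 3 (0.354 CPM), where the interferon sum was highest. None of the 10 genes was called in either direction by edgeR, DESeq2 or limma, and 0 of 10 had an unadjusted p under 0.05 in edgeR. *Cfb* in Ad*Lmo3* replicate 1 was above all controls (39.6 CPM against at most 31.4 CPM) while the interferon sum of that library was below all of them. Relative to the AdLacZ mean, *C3* was 0.67, 0.60 and 0.98 higher on the log2 scale in Ad*Lmo3* replicates 1, 2 and 3, with replicates 1 and 2 nearly equal. The part of interferon signalling in the *Cfb*, *C4b* and *Serping1* values was not tested.

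**Figure D3:**
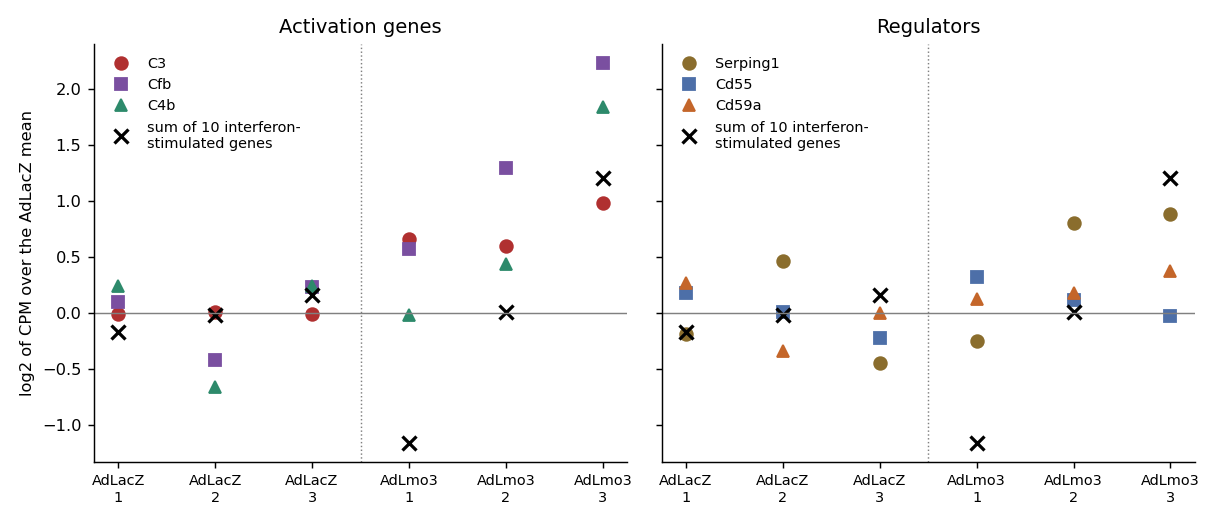
Log2 of the CPM over the AdLacZ mean (vertical axis) in each library (horizontal axis), for *C3*, *Cfb* and *C4b* (left panel) and *Serping1*, *Cd55* and *Cd59a* (right panel), with the summed level of 10 interferon-stimulated genes as crosses in both. *Cfb* runs from 0.57 to 2.24 and *C4b* from -0.02 to 1.84 over the Ad*Lmo3* libraries, *C3* from 0.60 to 0.98, and *Cd55* and *Cd59a* stay between -0.34 and 0.38 in all 6.

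*Serping1* encodes the plasma C1 inhibitor and lies at chr2:84765387-84775444 on the minus strand (GRCm38), with 8 exon blocks. Its counts were 15, 26 and 12 in AdLacZ and 15, 31 and 24 in Ad*Lmo3*. All libraries were above the detection limit of 3 counts and the groups overlapped. The mean levels of 0.48 ± 0.16 and 0.71 ± 0.27 CPM (SD, n = 3) differed by a log2 fold change of 0.53 (SE 0.397, 95% interval -0.38 to 1.45, adjusted p = 0.510, edgeR). That interval holds both a small fall and a more than 2-fold rise.

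CD55, also called decay-accelerating factor, is anchored in the plasma membrane by a lipid. *Cd55* lies at chr1:130439027-130462744 on the minus strand (GRCm38), and 5.53% of its stretches of 75 bases are shared with *Cd55b*, which had at most 1 count in any library. It measured 19.8, 17.6 and 15.0 CPM in AdLacZ and 21.9, 18.9 and 17.2 CPM in Ad*Lmo3*. The groups overlapped, with a log2 fold change of 0.15 (SE 0.130, 95% interval -0.15 to 0.45, adjusted p = 0.583, edgeR).

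CD59, likewise lipid-anchored, blocks the last step of the terminal pathway. *Cd59a*, the widely expressed one of the 2 mouse genes, lies at chr2:104095801-104115354 on the plus strand (GRCm38), and 1.66% of its stretches are shared with *Cd59b*, which had at most 1 count in any library. *Cd59a* measured 33.3, 21.8 and 27.7 CPM in AdLacZ and 30.2, 31.3 and 36.0 CPM in Ad*Lmo3*. Here too the groups overlapped, since AdLacZ replicate 1 was above 2 of the 3 Ad*Lmo3* libraries. The log2 fold change was 0.23 (SE 0.147, 95% interval -0.10 to 0.57, adjusted p = 0.423, edgeR). It was 0.39 without AdLacZ replicate 1 (adjusted p = 0.177, edgeR) and 0.09 without AdLacZ replicate 2 (adjusted p = 0.709, edgeR). For *Cd55* and *Cd59a* the intervals exclude a rise or a fall of 1 on the log2 scale, whereas those of *C4b* and *Serping1* do not exclude such a rise.

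Over the 6 tested members, 6 of 6 log2 fold changes were above 0, with a median of 0.65 against 0.00 over all 12766 genes. Of the 6 tested members, 1 was called higher, where 2.71% of all tested genes were, and 0 were called lower. DESeq2 called 2 of 6, *C3* and *Cfb*, against 8.69% of all tested genes. The groups did not overlap for 2 of 6, *C3* and *Cfb*, where 26.5% of all tested genes showed no overlap. *C2*, the member under the filter, is in none of these counts.

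Levels between genes were compared as CPM per kb of exon. In AdLacZ the order of the members was *C3* at 385 ± 3.30, *C4b* at 17.6 ± 5.60, *Cd59a* at 15.3 ± 3.18, *Cfb* at 9.42 ± 2.10, *Cd55* at 3.60 ± 0.501, *Serping1* at 0.207 ± 0.0705 and *C2* at 0.0590 ± 0.0283 CPM per kb (SD, n = 3). *C3* was thus 21.9-fold above the next member. Only *C4b* and *Cd59a* among these neighbours overlapped in their libraries. In Ad*Lmo3*, *C3* stood at 651 ± 95.7 and *C4b* at 34.8 ± 24.8 CPM per kb. *Cfb* came next at 27.2 ± 15.6 and *Cd59a* at 17.9 ± 1.70 CPM per kb, and here *C4b* overlapped with *Cfb* and *Cfb* with *Cd59a*. The change of place between *Cfb* and *Cd59a* was not tested. *Cfd*, at 2634 ± 78.0 CPM per kb in AdLacZ and 4632 ± 591 in Ad*Lmo3*, was above *C3* in both groups.

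**Figure D4:**
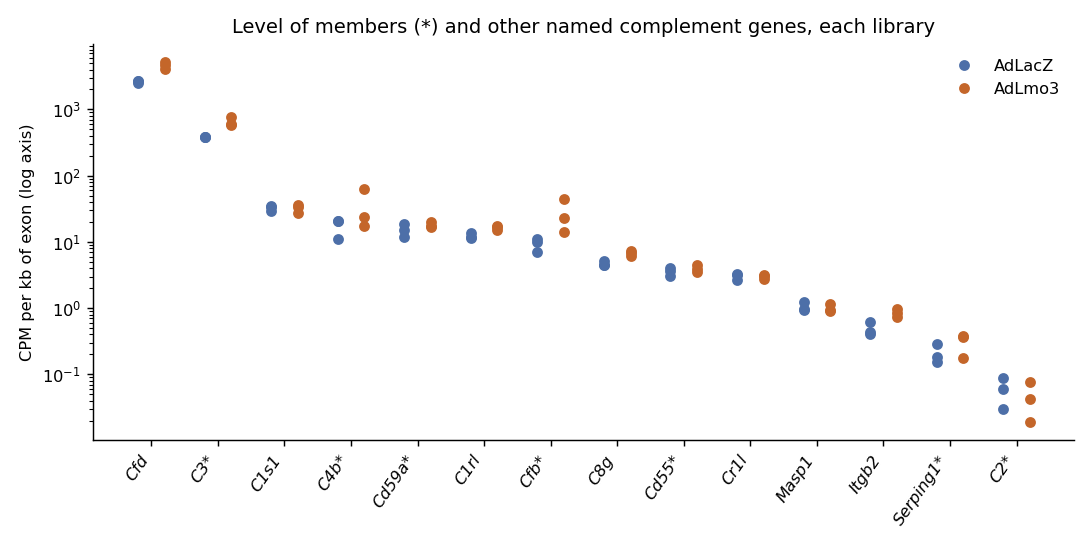
CPM per kb of exon (vertical axis, logarithmic) of the 7 members, marked with an asterisk, and 7 other named complement genes, with 1 point per library and the genes ordered by their AdLacZ mean. *Cfd* and *C3* lie far above the rest, at 2634 and 385 CPM per kb in AdLacZ, and *C2* is the lowest at 0.0590.

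The wider pathway was followed with a list of 48 other complement genes. Of these, 26 had at most 3 counts in every library, 13 of them with no count in any, and 17 passed the filter. Of the 17, 2 were significantly induced, *Cfd* and *C1rl*, and 0 were lower, and the median log2 fold change was 0.10, where 2.71% of all tested genes were higher and 1.57% were lower. Libraries of the 2 groups did not overlap for 6 of the 17, beside 26.5% of all tested genes. DESeq2 called 5 of them, beside 8.69% of all tested genes, adding *C1rb*, *C8g* and *Itgb2*, which were named after their values were seen.

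Among 8 genes of the C1 complex, the chains *C1qa*, *C1qb* and *C1qc* had 0 counts in all libraries, and the 5 tested were the protease genes. *C1s1*, which encodes the C1s protease and was the most abundant of them, was at 107.9, 106.9 and 90.5 CPM in AdLacZ and at 114, 104 and 86.3 CPM in Ad*Lmo3* (log2 fold change -0.01, SE 0.114, adjusted p = 0.987, edgeR). Both groups covered the same range. Of the *C1s1* stretches of 75 bases, 13.0% also occur in *C1s2*, so reads there could go to either gene or be dropped. *C1rl*, which encodes a C1r-like protease, was higher in all 3 Ad*Lmo3* libraries (45.9, 50.1 and 51.4 CPM) than in AdLacZ (34.8, 36.2 and 40.6 CPM), with a log2 fold change of 0.40 (SE 0.0803, adjusted p = 0.0328, edgeR). That call was lost in 5 of the 6 fits that left out a library, with adjusted p-values up to 0.130. *C1ra* and *C1rb* share 40.1% and 49.5% of their stretches of 75 bases, so the values of each are uncertain. *C1rb* had a log2 fold change of 0.30 (adjusted p = 0.0752, edgeR).

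Of 8 further genes of the classical and lectin routes, 3 were tested, and 0 were called by edgeR, DESeq2 or limma or had an unadjusted p under 0.05 in edgeR. The most abundant was *Masp1*, which encodes a lectin-route protease, with a log2 fold change of -0.07 (SE 0.152, adjusted p = 0.836, edgeR). Of the 2 alternative-route genes of the list, *Cfd* rose, and *Cfp*, which encodes the convertase stabiliser properdin, was at 2.97 to 4.73 CPM over all 6 libraries with a log2 fold change of 0.09 (SE 0.222, adjusted p = 0.864, edgeR). Of 7 terminal genes, *C8g* alone was tested, and 5 had at most 3 counts in every library. *C8g*, the lipocalin chain of C8, was at 6.60 to 7.76 CPM in AdLacZ and 9.04 to 10.7 CPM in Ad*Lmo3* (log2 fold change 0.49, SE 0.119, adjusted p = 0.0601, edgeR).

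Of 15 regulator genes outside the members 5 were tested, and 0 were called by edgeR, DESeq2 or limma or had an unadjusted p under 0.05 in edgeR. *Cr1l*, which encodes the rodent membrane regulator Crry, was at 31.3 ± 3.64 and 31.0 ± 1.90 CPM (SD, n = 3; log2 fold change -0.02, SE 0.0981, adjusted p = 0.955, edgeR). Of 8 receptor genes, 6 were at or under 3 counts in every library, among them *C3ar1*, the C3a receptor gene, with at most 2 counts, and *C5ar1* with 0. *Itgb2*, the shared chain of the complement receptors CR3 and CR4, was the 1 receptor gene tested, at 1.23 to 1.86 CPM in AdLacZ and 2.25 to 2.92 CPM in Ad*Lmo3* (log2 fold change 0.80, SE 0.223, adjusted p = 0.0901, edgeR).

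**Figure D5:**
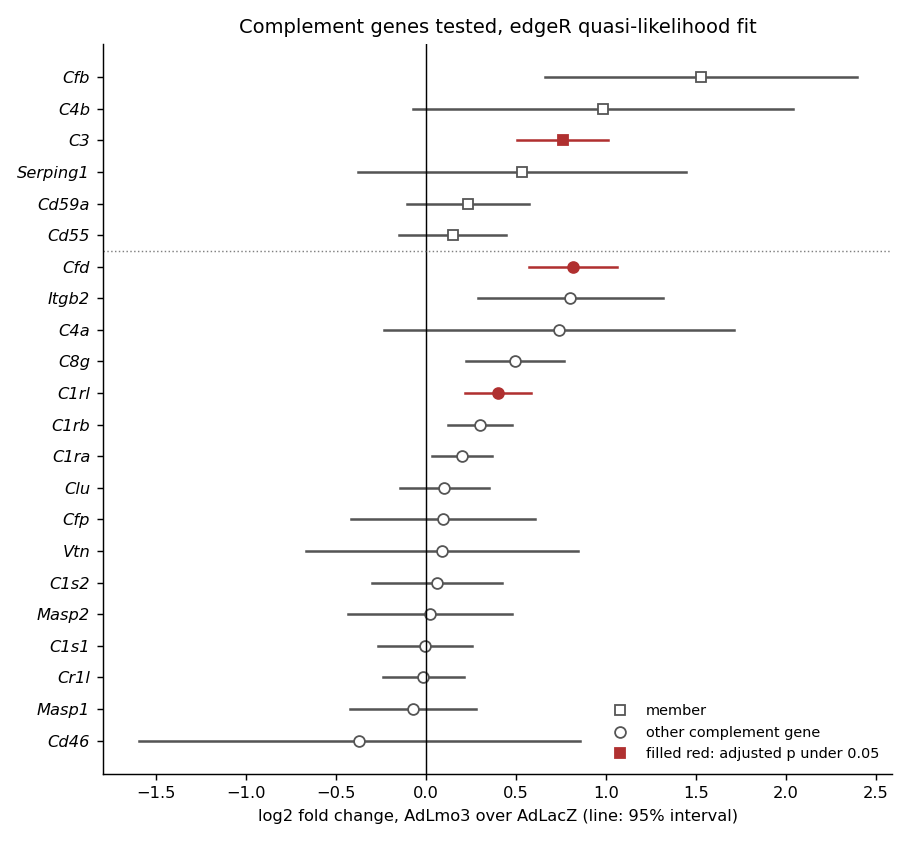
Log2 fold change with its 95% interval (horizontal axis, Ad*Lmo3* over AdLacZ) for the 6 tested members (squares, above the dotted line) and 16 of the 17 other tested complement genes (circles). *C3*, *Cfd* and *C1rl*, filled in red, passed an adjusted p of 0.05, and *Cfb* lies farthest to the right at 1.53.

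Markers of other cells that make complement were counted beside these genes. Of 8 macrophage genes, 5 were tested and 0 were called by edgeR, DESeq2 or limma, and their summed level was 16.6 to 17.8 CPM in AdLacZ and 13.6 to 15.9 CPM in Ad*Lmo3*. *Cd14*, an endotoxin co-receptor, made up most of it, and the defining genes *Ptprc* and *Adgre1* had at most 1 and 2 counts. All 6 hepatocyte genes fell below the filter, with a sum of at most 0.486 CPM and *Alb*, the albumin gene, as the highest. Of 5 endothelial genes, 2 were tested and 0 were called by the 3 tools, with 1 at an unadjusted p under 0.05. Their sum was 1.55 to 2.38 CPM in AdLacZ and 1.07 to 1.86 CPM in Ad*Lmo3*, with *Pecam1* the highest. Of 7 preadipocyte genes, 0 were called by the 3 tools and 0 had an unadjusted p under 0.05, and the sum, mostly *Dlk1*, was 1288 to 1893 CPM in AdLacZ and 1493 to 1936 CPM in Ad*Lmo3*. The part of the higher adipocyte marker level in the *C3* and *Cfd* differences was not tested.

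The genes with patterns most like *C3* and *Cfb* were sought among 9147 tested genes with a mean of at least 10 CPM, by the root-mean-square difference of centred log2 CPM over the 6 libraries. Nearest to *C3* were *Hivep3* (0.0591), *Mapk6* (0.0685), *Dock11* (0.0686), *Emp1* (0.0741) and *Sgcd* (0.0790), where the number is that difference. None of them is a complement gene. Nearest to *Cfb* were *Ifi27l2a* (0.238), *Pdzd2* (0.329), *Vnn3* (0.331), *C4b* (0.340) and *Adrb3* (0.341). *Ifi27l2a* is an interferon-induced gene and *Adrb3* encodes the β3-adrenergic receptor of fat cells, and *C4b* is the only other member among these neighbours. The nearest patterns to *Cfb* were several times farther away than those to *C3*, but the difference is not scaled to the spread of a gene. Relative to the AdLacZ mean, *Cfb* ran from -0.41 to 2.24 on the log2 scale and *C3* from -0.01 to 0.98. The distances therefore do not show which of the 2 patterns is the more isolated. These genes were selected for likeness and carry no test.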

How the data were processed

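Total RNA of 3 AdLacZ and 3 Ad*Lmo3* cultures was sequenced as 75-base single reads after a NEBNext Ultra II RNA preparation. The deposited values are raw counts per gene symbol, 1 table per library. Per the submitters' processing notes and methods, the authors used bcl2fastq, STAR (2.5.0b) on mm10 and DESeq2 (1.6.3). The counting program, its annotation and its strand setting were not given in the sources used here, so reads of genes overlapping on opposite strands cannot be told apart. Rows that name no gene (no feature, 7.15 to 8.94%; ambiguous, 0.476 to 0.543%) were left out.

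Counts were filtered with filterByExpr (minimum count 10), scaled by TMM and fitted on the whole table with edgeR 4.0.16 (R 4.3.3; quasi-likelihood test, Benjamini-Hochberg over 12766 genes, threshold 0.05). Alternatives were DESeq2 1.42.0, limma 3.58.1 (voom), RLE or library-total scaling, no filter or CPM above 1 in 3 libraries, the replicate number as a block, summed gene copies and each library left out. The scripts were tested on simulated data. Exon lengths, positions and shared stretches of 75 bases came from GENCODE vM21 (GRCm38, the build of mm10). The members, the gene lists and the tests were chosen with earlier results of these data known. Named genes were all members, each other complement gene past the threshold, the most abundant tested gene of each role and list, and the 5 genes nearest in pattern to *C3* and *Cfb*, except for genes that are not reported here. Within groups, replicate libraries differed by more than counting noise (chi-square per degree of freedom 22.9 to 61.6), so no library appeared to be deposited again, which does not show that the cultures were separate.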

Additional observations from a re-analysis of the deposited data

How the results depend on the processing

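*C3* was called higher in 12 of 13 alternatives, the exception being without AdLacZ replicate 3, and leaving out each library gave log2 fold changes of 0.63 to 0.83. *Cfb* kept its direction in all 13 alternatives. It passed the threshold in DESeq2 (1.53), with no low-count filter (1.52), with the replicate block (1.41) and without Ad*Lmo3* replicate 1, and ranged from 0.98 to 1.84 with each library left out. *C4b*, *Serping1*, *Cd55* and *Cd59a* were above 0 and uncalled in every alternative that could test them. *C2* was under the filter and was tested in 3 alternatives only, with 0 calls. *Serping1* fell under the filter at CPM above 1. The number of members called was 2 in DESeq2, with no filter and with the block, and 0 to 2 with each library left out. The number of other complement genes called was 5 in DESeq2 and 0 to 2 with each library left out. Over all genes DESeq2 called 1110, and leaving out each library gave 77 (without AdLacZ replicate 3) to 501. The cause of these shifts was not tested, beyond the smaller number of libraries where 1 was left out.

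Samples shared only a replicate number: deviations of same-numbered libraries correlated at 0.03, 0.18 and 0.18, and 4 of 6 libraries correlated best with their own number. The replicate block called 498 genes, 400 of them shared with the fit without it. *C2* and *Serping1* rest on 2 to 31 counts a library.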
